A study of Mus musculus with 58 samples.

Results

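The regions described here were the 391 liver CLOCK peaks, of 439 in the deposited liver CLOCK list, that had no BMAL1 peak nearby. A peak was taken as a member where no BMAL1 peak centre of NIH3T3 cells or of liver lay within 500 bp of its own centre. The other 48 liver CLOCK peaks had such a BMAL1 peak and served as the comparison within the list. The liver CLOCK list came from 1 sample of C57/BL6 mice aged 12 to 14 weeks, kept in 12 h of light and 12 h of dark with food at will. Its label calls that sample pooled and gives neither a time of day nor a number of animals. The lists show where ChIP-seq, which sequences DNA pulled down with an antibody, found the protein bound. The other lists came from dexamethasone-synchronised NIH3T3 mouse fibroblasts, with 463 BMAL1 peaks and 1016 CLOCK peaks, and from liver at zeitgeber time 6, with 1254 BMAL1 peaks. The cells had been treated with 100 nM dexamethasone, a glucocorticoid that sets their clocks in step, and their BMAL1 libraries were taken 12 to 38 h and their CLOCK libraries 18 to 38 h later. The NIH3T3 BMAL1 list is named for the 20 h library, while the descriptions of all 7 NIH3T3 BMAL1 libraries name that list. Likewise, the descriptions of the 6 NIH3T3 CLOCK libraries name the NIH3T3 CLOCK list. How the libraries entered each list was not traced further. The ChIP labels give no genetic change; the shared protocol also describes Zeb1 knockdown cells, which no ChIP label names. The tissue was taken from the label, since a peak list holds no expression values. Each list gave positions in the mouse build mm9 with no height, score or value per library, so depth is unknown and no replicate error exists. Intervals and tests below cover counting over peaks only, and peaks of 1 pooled sample are not replicates.

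CLOCK is a basic helix-loop-helix PAS protein that binds DNA as a pair with BMAL1 (ARNTL), and in some tissues BMAL1 also pairs with NPAS2. The pair recognises the E-box, whose canonical letters are CACGTG, and in liver it drives the Per and Cry repressor genes, the REV-ERB genes and output genes such as Dbp at a certain phase of the day. A missing BMAL1 peak was not read as missing BMAL1 protein, since a list holds no value for regions outside its peaks.

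The peaks' own 250 bp sequences are not used here because no mm9 genome was at hand. RefSeq promoters are shown in their place, to give the sequence at the starts of the genes next to members. Of the 4 genes whose BMAL1 peak was the nearest to a member and within 10 kb, 3 matched the promoter table of build GRCm38.p6, which runs from 250 bases before to 50 bases after a start site. The windows of Fnip1 and Nr1d1, which held a match, are shown 5′ to 3′ on the gene's strand with E-box letters in capitals. The Dbp window is not printed. CACGTG or its variant CACGTT was searched on both strands (the variant reads AACGTG on the other strand). The Fnip1 window is chr11:54437929-54438228 on the plus strand and the Nr1d1 window is chr11:98775328-98775627 on the minus strand.
Fnip1: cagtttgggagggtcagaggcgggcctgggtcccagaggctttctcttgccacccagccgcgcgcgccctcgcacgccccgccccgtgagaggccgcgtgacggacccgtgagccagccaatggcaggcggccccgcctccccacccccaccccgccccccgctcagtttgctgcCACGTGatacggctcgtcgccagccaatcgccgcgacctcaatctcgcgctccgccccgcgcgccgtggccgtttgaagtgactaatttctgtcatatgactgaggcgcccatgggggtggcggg
Nr1d1: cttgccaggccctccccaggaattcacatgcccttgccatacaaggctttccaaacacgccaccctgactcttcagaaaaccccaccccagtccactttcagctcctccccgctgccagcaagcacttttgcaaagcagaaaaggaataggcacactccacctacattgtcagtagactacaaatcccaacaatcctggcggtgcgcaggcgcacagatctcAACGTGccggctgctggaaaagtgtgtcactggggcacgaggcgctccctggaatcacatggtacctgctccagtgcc
Fnip1 had 1 CACGTG whose first base lay 75 bases before the start site, and Nr1d1 had 1 AACGTG 28 bases before it. The Dbp window held neither motif. By the authors' distances, the BMAL1 peak nearest to the Fnip1 member (-241 bp) fell in such a window, while those nearest to the Nr1d1 members (-8107 and -297 bp) did not. Another Nr1d1 BMAL1 peak, at 27 bp and in both BMAL1 lists, did fall within that range. The BMAL1 peak nearest to the Dbp member (-113 bp) also fell within that range of its start site. The authors' distances gave more than a single start site at Dbp, and which of them the Dbp window covers was not checked. Over all 32851 promoters in the table, 7.15% held CACGTG and 4.69% held the variant, so a match is a description of these letters and not a site.

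Most of the 391 peaks lay far from any BMAL1 peak. Their distance to the nearest one ranged from 560 bp to 10337645 bp with a median of 957061 bp, and the middle 50% of values ran from 370531 to 2029412 bp. Only 11 of 391 (2.81%, 95% Clopper-Pearson interval 1.41 to 4.98) lay within 10 kb of a BMAL1 peak. A further 22 lay 10 to 100 kb away, 167 lay between 100 kb and 1 Mb, and 191 (48.9%, 43.8 to 53.9) lay over 1 Mb away. The median distance was 1081083 bp to the liver BMAL1 list and 3319244 bp to the shorter NIH3T3 BMAL1 list. The rule set these distances above 500 bp, so they describe the members and were not tested.

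The limit of 500 bp separated few peaks. Just outside it, the nearest members were a peak 560 bp from a BMAL1 peak of Dbp and 2 peaks at 737 and 1144 bp from a BMAL1 peak of Nr1d1. Just inside it, the farthest excluded peaks were at 287 bp (Nr1d1), 264 bp (Gm15904) and 203 bp (Gm129, also called Ciart or CHRONO, a clock repressor). No liver CLOCK peak had its nearest BMAL1 centre between 287 and 560 bp. The 48 peaks with BMAL1 had a median distance of 29.3 bp.

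**Figure D1:**
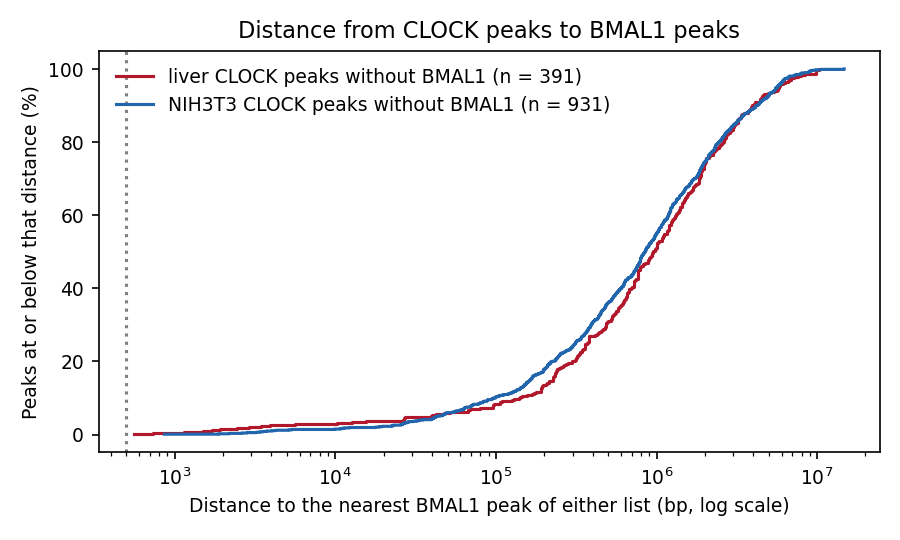
Cumulative share (%) of CLOCK peaks without BMAL1 by the distance in bp (log axis) from the peak centre to the nearest BMAL1 centre of either list, for 391 liver and 931 NIH3T3 peaks, with the 500 bp limit as a dotted line. Both curves stay low up to 100 kb and rise mainly between 100 kb and 10 Mb, with medians of 957061 bp in liver and 847348 bp in NIH3T3 cells.

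The same rule applied to the NIH3T3 CLOCK list left 931 of 1016 peaks without BMAL1. Within 100 kb of a BMAL1 peak lay 33 of 391 liver members (8.44%, 5.88 to 11.7) and 96 of 931 NIH3T3 CLOCK peaks (10.3%, 8.43 to 12.4). The medians were 957061 and 847348 bp. Since the rule used these distances in both lists, the values are set side by side without a test.

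Among the clock genes, Nr1d1 and Dbp held the members. Nr1d1 encodes REV-ERBα, the nuclear receptor that represses Arntl, the gene of BMAL1. Dbp encodes the D-box binding protein, a PAR bZIP factor that carries the clock to output genes. Of the 11 members within 10 kb of a BMAL1 peak, 8 lay at Nr1d1 and 1 at Dbp. Over all 1137 genes with a BMAL1 peak, 16 (1.41%) had a member within 50 kb of one. In the core clock list 12 of 27 genes had a BMAL1 peak, and Nr1d1 was the 1 gene with a member within 10 kb or within 50 kb. In the list of bZIP output genes (Dbp, Tef, Hlf and Nfil3) all 4 had a BMAL1 peak, and 1 had a member.

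The 8 Nr1d1 members formed a run upstream of the gene, all on chromosome 11 between 98640280 and 98644141, a stretch of 3862 bp. Their centres stood 3735, 4185, 5169, 5646, 6364, 6591, 6940 and 7347 bp upstream of the start site that the authors' distances give. BMAL1 peaks flanked the run without entering it. Counted from the start site, with negative values upstream, the nearest BMAL1 centres on either side stood at -275 bp (NIH3T3 list) and -8084 bp (both lists), leaving 7809 bp with no BMAL1 peak in either list. Inside that gap the liver list had 10 CLOCK peaks, of which 2 lay within 500 bp of a flanking BMAL1 peak and the other 8 were the members. NIH3T3 cells had 9 CLOCK peaks in the same gap, of which those at -8078 and -332 bp lay within 500 bp of a flanking BMAL1 peak. The Nr1d1 neighbourhood as a whole held 15 liver and 12 NIH3T3 CLOCK peaks.

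**Figure D2:**
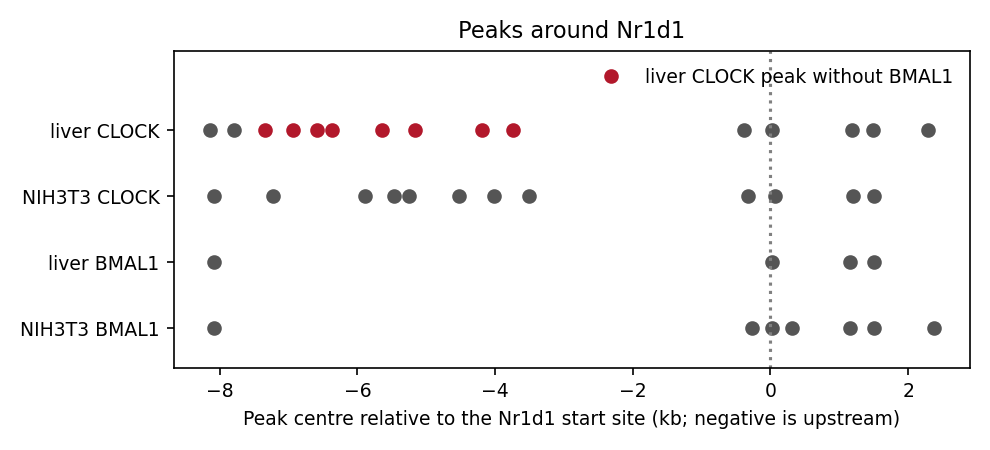
Peak centres around Nr1d1 in the 4 lists, by distance in kb from the start site derived from the authors' distances (dotted line, negative values upstream). The 8 members (red) stand 3735 to 7347 bp upstream, where NIH3T3 CLOCK peaks also stand and neither BMAL1 list has a peak.

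At Dbp the single member covered chromosome 7, 52963582 to 52963831. It lay 560 bp from the BMAL1 peak at 52963122 to 52963171, an interval listed in both BMAL1 lists, and 447 bp downstream of the start site to which the authors assigned that BMAL1 peak. The authors' distances for other BMAL1 peaks of Dbp gave a further start site upstream, and the member stood 3248 bp downstream of that one. The other 2 liver CLOCK peaks of Dbp, at 52960249 to 52960498 and 52962939 to 52963188, each had BMAL1 within 500 bp. The next liver CLOCK centre was 643 bp from the member.

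Outside the clock genes 2 members lay within 10 kb of a BMAL1 peak. One, at chromosome 15, 103090611 to 103090860, stood 1924 bp from a liver BMAL1 peak at 23 bp from the start site of Nfe2, a bZIP factor of the erythroid and megakaryocyte lineages. The other, at chromosome 11, 54256948 to 54257197, stood 5632 bp from a liver BMAL1 peak 241 bp upstream of Fnip1, which encodes a folliculin partner that interacts with AMPK. It lay 5391 bp downstream of the Fnip1 start site. From the Nfe2 member the nearest NIH3T3 BMAL1 peak was 634721 bp away and the nearest NIH3T3 CLOCK peak 634800 bp. From the Fnip1 member these distances were 1024654 and 580849 bp. Both members thus had a BMAL1 peak nearby in liver and none in the NIH3T3 list.

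Among the lists of metabolism and cell identity genes, 1 gene had a member within 50 kb of its BMAL1 peak, which at a share of 1.41% over all genes with a BMAL1 peak says nothing particular of these lists. In the glucose and insulin list 10 of 19 genes had a BMAL1 peak, and a member lay within 50 kb of 1 of them, Gys2, the liver glycogen synthase. That member covered chromosome 6, 142466971 to 142467220, and stood 47253 bp from the BMAL1 peak. The lists for lipid, cholesterol and bile acid genes (15 of 30 with a BMAL1 peak), xenobiotic and redox genes (5 of 16), cell cycle genes (9 of 13), stress response genes (4 of 7) and other transcription factors (13 of 15) had no member within 50 kb. Neither did the hepatocyte list (3 of 11), the fibroblast list (5 of 9) or the 7 genes marking non-parenchymal and blood cells, of which 0 had a BMAL1 peak. As gene names come through BMAL1 peaks, these counts say nothing about genes that have a CLOCK peak and no BMAL1 peak.

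Between 10 and 100 kb from a BMAL1 peak lay 22 members, of which 15 had a liver BMAL1 peak and no NIH3T3 one within 100 kb, 2 had an NIH3T3 BMAL1 peak alone and 5 had both. The liver BMAL1 list is the longer one, with 1254 peaks against 463. Of all 391 members, 31 lay within 100 kb of a liver BMAL1 peak and 16 within 100 kb of an NIH3T3 one. For the 931 NIH3T3 CLOCK peaks without BMAL1 these counts were 86 and 42, so the lean to liver BMAL1 is not particular to the members. The genes named here were chosen after their values were seen. Overlapping member windows on chromosome 4, from 154575794 to 154576246, stood 26587 and 26790 bp from a BMAL1 peak of Ski, a corepressor of TGF-beta signalling. A member at chromosome 11, 53857259 to 53857508, stood 39501 bp from a BMAL1 peak of Slc22a4, an organic cation transporter. A member at chromosome 12, 73818907 to 73819156, stood 42445 bp from one of Ppm1a, a protein phosphatase. At Frat2 and Rgs20, a regulator of G-protein signalling, the BMAL1 peaks were NIH3T3 ones, 15504 and 17010 bp from the member. St13, an HSP70-interacting cochaperone gene, had a BMAL1 peak in both lists 12747 bp from a member at chromosome 15, 81242726 to 81242975. Atf7, a bZIP factor gene of the ATF family, and Gmfb, the glia maturation factor beta gene, also had BMAL1 peaks of both lists, 51798 and 97074 bp from a member. A pair at Dlgap2, a gene of the postsynaptic density, stood 26778 and 27034 bp from a liver BMAL1 peak, and Bmp2k, a kinase gene, had one 67408 bp from a member.

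The neighbouring genes of a member could be named where it fell between the start sites of genes with BMAL1 peaks that stand close together in the RefSeq gene order of GRCm38.p6. Start sites were worked out for 838 genes. They left 769 intervals, and 345 of the 391 members fell into 178 of these, with a median of 37 protein-coding genes between the flanking genes. For 23 members at most 5 genes stood between, and those named here were chosen after their values were seen. The 8 Nr1d1 members were among them, between Nr1d1 and Rara, the retinoic acid receptor alpha gene, with Msl1, Casc3, Rapgefl1, Wipf2 and Cdc6 in between. No protein-coding gene stood between for the member flanked by Dhrs7 and Ppm1a on chromosome 12, nor for the pair flanked by Dis3l2 and Alppl2 on chromosome 1 (88752334 to 88752802). The Nfe2 member fell between Cbx5 and Gpr84, with Hnrnpa1, Nfe2 and Copz1 in between.

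Further members also had few genes between their flanking genes. A pair on chromosome 7 (71235189 to 71235664) lay between Klf13, a Krüppel-like factor gene, and Trpm1, a cation channel gene, 95441 and 95667 bp from a BMAL1 peak. A member at chromosome 10, 41480760 to 41481009, lay between Cd164 and Foxo3, an insulin-responsive forkhead factor gene, with Ccdc162, Cep57l1, Sesn1 (a stress-induced sestrin) and Armc2 in between, and 241846 bp from a BMAL1 peak. A trio on chromosome 11 (starts 91843656, 93314510 and 93320285) shared the interval from Hlf to Utp18, which is 3494849 bp long and holds Stxbp4, Cox11, Tom1l1, Kif2b and Car10. On chromosome 2 a member at 59233963 to 59234212 lay between Upp2, a liver uridine phosphorylase gene, and Wdsub1. A member at chromosome 13, 94566109 to 94566358, lay between Dmgdh, the gene of the choline pathway enzyme dimethylglycine dehydrogenase, and Scamp1, with Arsb and Lhfpl2 in between, 106508 bp from a BMAL1 peak. On chromosome 1 a member at 195648838 to 195649087 had Camk1g alone between Lamb3 and Plxna2. The remaining ones lay between Ttc9 and Dpf3 on chromosome 12 and between Pik3ap1 and Frat2 on chromosome 19.

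The share of members in gene-poor intervals was close to the share of sequence that these intervals hold. Over all 769 intervals there were 8.71 protein-coding genes per Mb, and 35.8% of the intervals lay below that density. These sparse intervals are long and made up 67.9% of the summed length, and they held 231 of 345 members (67.0%, 61.7 to 71.9). Of the NIH3T3 CLOCK peaks without BMAL1, 553 of 849 (65.1%, 61.8 to 68.3) fell below the same density. The odds ratio between the lists was 1.09 with a 95% interval of 0.826 to 1.43 (two-sided Fisher exact p = 0.591), so a difference was not shown. The intervals end at genes with BMAL1 peaks, and the rule chose both sets by their distance from such peaks. The test is therefore tied to the rule and cannot settle whether the lists differ. Grouped peaks were also counted as if independent. Interval lengths were taken in mm9 and gene counts in GRCm38.p6.

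The members were seldom found again in NIH3T3 cells, and those that were stood at Nr1d1 and Dbp. An NIH3T3 CLOCK centre lay within 500 bp of 8 of the 391 members (2.05%, 0.887 to 3.99), against 6.38% of the whole liver CLOCK list. Of the 48 liver CLOCK peaks with BMAL1, 20 (41.7%, 27.6 to 56.8) had such a partner. These shares are a description with no test, because the rule used NIH3T3 BMAL1 peaks and the comparison peaks with a partner all stood at one. Of the 32 comparison peaks with an NIH3T3 BMAL1 centre within 500 bp, 20 (62.5%, 43.7 to 78.9) had a partner, and of the 16 with liver BMAL1 alone 0 did (upper limit 20.6%). Splitting the liver CLOCK list by liver BMAL1 alone gave 8 of 392 (2.04%) against 20 of 47 (42.6%). That split is not independent either, since 263 intervals stand identically in both BMAL1 lists, 21.0% of the liver list and 56.8% of the NIH3T3 list. With a wider limit, 9 members lay within 10 kb of an NIH3T3 CLOCK peak, 34 within 100 kb and 206 within 1 Mb.

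Of the 8 members with a partner, 7 were in the Nr1d1 run, at 82, 128, 166, 183, 228, 279 and 472 bp from the NIH3T3 CLOCK centre, and the Dbp member was at 494 bp. The remaining Nr1d1 member was 628 bp from one. Without all peaks whose nearest BMAL1 peak was that of a clock gene within 10 kb, 0 of 382 members had a partner, which allows a share of up to 0.785% by 3 counts of the total and 0.961% by the Clopper-Pearson limit. Of the peaks with BMAL1, 2 of 26 did (7.69%, 0.946 to 25.1), both of them at an NIH3T3 BMAL1 peak. With liver CLOCK centres up to 1 kb apart counted as a single locus, the Nr1d1 run and the Dbp member joined loci with BMAL1, and 0 of 337 loci of members alone had a partner (up to 0.890% by 3 counts, 1.09% by the Clopper-Pearson limit), against 14 of 38 other loci. In the reverse direction, 7 of 931 NIH3T3 CLOCK peaks without BMAL1 (0.752%, 0.303 to 1.54) had a liver CLOCK peak within 500 bp.

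**Figure D3:**
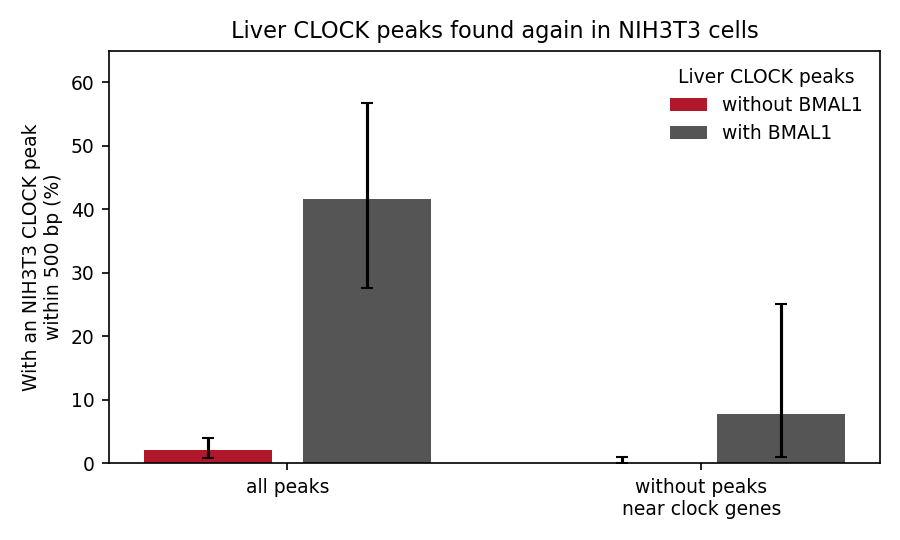
Percentage of liver CLOCK peaks that had an NIH3T3 CLOCK centre within 500 bp, for peaks without (red) and with (grey) BMAL1, over all peaks and without those near clock genes; bars are shares and lines are 95% Clopper-Pearson intervals. The shares are 2.05% and 41.7% over all peaks, and 0% and 7.69% without clock genes.

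The share of members that stood in groups was near that of the liver CLOCK list. Members made up 391 of its 439 peaks, so these shares could not differ much. A second liver CLOCK centre lay within 1 kb of 95 of 391 members (24.3%, 20.1 to 28.9), against 26.0% of the whole liver CLOCK list. In NIH3T3 cells, 59 of 931 CLOCK peaks without BMAL1 (6.34%, 4.86 to 8.10) had a second NIH3T3 CLOCK centre as close. The odds ratio was 4.74 (3.29 to 6.86; two-sided Fisher exact p = 1.06e-18). Grouped peaks are not independent of each other, so this p is too small. Peaks were 250 bp wide in the liver CLOCK list and 50 bp wide in the NIH3T3 CLOCK list, and the part of this in the difference was not tested. Outside Nr1d1, 87 of 383 members (22.7%) were grouped.

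Members were grouped less often than the 48 peaks with BMAL1, and this was not seen once peaks near clock genes were left out. Of those 48, 19 (39.6%, 25.8 to 54.7) had a second liver CLOCK centre within 1 kb, an odds ratio of 0.491 for the members (0.253 to 0.971; two-sided Fisher exact p = 0.0349). Grouped peaks are not independent here either, and the Nr1d1 locus holds peaks of both kinds, so this p is too small. Without peaks near clock genes the direction turned, with 86 of 382 members (22.5%) and 4 of 26 peaks with BMAL1 (15.4%), and the test gave no call (odds ratio 1.60, 0.522 to 6.54; two-sided Fisher exact p = 0.474). With 26 peaks the interval is too wide to show a difference in either direction.

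The grouped members stood mostly in pairs. The 391 members made up 339 loci, of which 297 held 1 member, 38 held 2, 2 held 3, 1 held 4 and 1, at Nr1d1, held 8. The locus of 4 lay at chromosome 1, 26743268 to 26745113, with the nearest BMAL1 peak 9782315 bp away. The loci of 3 lay at chromosome 6, 89524469 to 89525192 (888662 bp from a BMAL1 peak of Klf15, a Krüppel-like factor) and at chromosome 7, 59789816 to 59790646 (359225 bp from a BMAL1 peak with no gene assigned). None of these last 3 loci had an NIH3T3 CLOCK peak within 300 kb, the nearest being 358140 bp from the locus of 4.

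Neighbouring member centres within 1 kb were 203 to 984 bp apart with a median of 272 bp. Of the 52 such neighbours, 47 were at most 500 bp apart and 15 were closer than 250 bp, so that their 250 bp windows overlapped. No member's next member along the chromosome was 1 to 5 kb away. The NIH3T3 CLOCK list likewise had no centres closer than 201 bp, and the median of its 41 neighbours within 1 kb was 257 bp.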

How the data were processed

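The 4 files analysed were the authors' peak lists, 1 for each protein and context, with chromosome, start and end, and in the BMAL1 lists a gene and a signed distance in bp. The deposited values are positions and distances with no other unit, and no score. The submitters' processing notes name Bowtie, SAMtools, bedtools and the build mm9 without roles; for the peak caller and thresholds, not given in the sources used here. Liver BMAL1 peaks were reprocessed from earlier libraries, per the series design text. Starts are printed counting from 1.

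Nearness was the distance between peak centres (500 bp), and loci joined liver CLOCK centres within 1 kb. A start site was the BMAL1 centre minus the authors' distance, read along the gene's strand. For 106 of 145 genes with several BMAL1 peaks the start sites so derived agreed within 60 bp, against 54 and 56 when strand was ignored. Splits were compared by Fisher's exact test, two-sided (conditional odds ratios, 95% intervals), shares have Clopper-Pearson intervals, and a share of 0 also has the limit that 3 counts of the total give. The test planned for NIH3T3 CLOCK partners is not used, since its groups were split by NIH3T3 BMAL1 peaks. The counting and the tests were tested on simulated data with peaks drawn independently, which does not cover grouped peaks. A test planned on E-box letters in the peaks was not run for lack of an mm9 genome.

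The members, the 11 gene lists and the tests were chosen with earlier results of these data known. Named genes were those of the nearest BMAL1 peak within 10 kb of a member, list genes within 50 kb, members with an NIH3T3 CLOCK partner, loci of 3 or more members and the 3 peaks on either side of the limit; others are said to be chosen after seeing values. The comparisons with NIH3T3 CLOCK peaks without BMAL1, gene density and chromosomes were added after seeing the data. Alternatives were other distances, 1 bp overlap, loci and leaving out clock genes. Scripts ran under Python 3.11.15 with SciPy 1.17.1, pandas 2.3.3, NumPy 2.4.6 and matplotlib 3.10.9.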

Additional observations from a re-analysis of the deposited data

How the results depend on the processing

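Of 6 alternatives for the number of members, those that count peaks gave 389 to 407, and joining into loci gave 337 loci of members alone. The lower share of NIH3T3 CLOCK partners among members than among peaks with BMAL1 held in direction under all 9 alternatives run, none of which is independent of the NIH3T3 BMAL1 peaks behind the rule. The share itself fell from 2.05% to 0.512% when intervals had to overlap by 1 bp and to 0% over loci of members alone. Grouping of members against peaks with BMAL1 was no longer past the threshold with a 500 bp limit (22.8% of members grouped) or with members defined at 200 bp (24.9%), and its direction turned without peaks near clock genes (22.5%). Members near a BMAL1 peak numbered 23 within 50 kb, in place of 11 within 10 kb. Only 2 loci of members alone lay within 10 kb, because the Nr1d1 and Dbp members joined loci that also hold peaks with BMAL1 and were left out. Members within 1 kb of a derived start site numbered 1 (the Dbp member, at the nearer Dbp start site), with 0 in a 200 bp window and 3 in a 5 kb window. These counts cover only the 838 genes with a derived start site. Nfe2 was not among them, though its member stood 1924 bp from a BMAL1 peak at 23 bp from the Nfe2 start site. Added after seeing the data, a limit of 10 genes per Mb turned the gene density comparison, which passed no test (70.7% of members), and the chromosome 7 share of 8.70% was not past the threshold against liver BMAL1 peaks. No paired analysis was possible because the lists hold no values per library. Lists without scores leave the depth behind each peak unknown, and the liver CLOCK label gives no time of day to set beside zeitgeber time 6 of liver BMAL1.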

Other observations

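Members were found on all 20 chromosomes tested, with 1 on X and 34 of 391 (8.70%) on chromosome 7. In the NIH3T3 CLOCK list 32 of 931 peaks without BMAL1 (3.44%) were on chromosome 7. Over 20 chromosomes this was the 1 difference that passed (odds ratio 2.67, 1.57 to 4.55; two-sided Fisher exact p = 1.44e-04, Benjamini-Hochberg adjusted 0.00287). Grouped peaks were counted as independent, so these p-values are too small. Over loci the share was 7.96% of 339 member loci (two-sided Fisher exact p = 0.00239, not adjusted for the 20 chromosomes). The loci come from the same peaks on which chromosome 7 was picked, so this is not a second, independent test. Liver BMAL1 peaks were on chromosome 7 at 94 of 1254 (7.50%), and the members did not differ from these by the test (odds ratio 1.18, 0.756 to 1.79; two-sided Fisher exact p = 0.450). The comparison was chosen after seeing the data. The intervals with most members were the one from Nr1d1 to Rara with 8 and, on chromosome 7, the one from Nr2f2 to Stard5 with 8 members over 13275584 bp. On chromosome 7, 6 members also lay between Nav2 and Luzp2 over 5471238 bp with 12 protein-coding genes in between. Intervals on other chromosomes held 6 as well, from Adcy2 to Dmgdh on chromosome 13 and from Elovl1 to Thrap3 on chromosome 4. These are counts of peaks and not of loci. The members between Nav2 and Luzp2 included a locus of 2 and a locus of 3, and those between Nr2f2 and Stard5 included loci of 2.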
